A study of Mus musculus with 4 samples.

Results

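The genes described here are 8 genes of lipid transport, lipoproteins and phospholipid cleavage, namely Mfsd2a, Fabp5, Apoe, Apoc1, Lpl, Abca1, Abcg1 and Pla2g7. They were chosen by name, with their values in the present comparison already known, and each matched exactly 1 of the 26815 entries of the authors' deposited table. The study sequenced poly(A) RNA of neural stem cells from the cortex of E14.5 CD-1 mouse embryos, a commercial stock kept as a monolayer on poly-L-ornithine and laminin with EGF and bFGF. All cells had received a lentivirus and were expanded under puromycin at 0.5 µg/mL. In 2 libraries the virus carried a scrambled shRNA and in the other 2 an shRNA against Foxp1, a single hairpin, with passages of the culture serving as replicates. The deposited comparison names its conditions by the codes q1 and q2 alone. Which code stands for which shRNA is stated in no label or header, so every direction here is q2 relative to q1. In the authors' deposited table Foxp1 itself was lower in q2 by 4.09-fold, so the coded conditions differ in the targeted gene, but the value was not used to name either.

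Neural cells take up, store, export and break down lipids with a shared set of proteins. Fatty acids enter as free acids or, as for docosahexaenoic acid in brain, bound to lysophosphatidylcholine that MFSD2A carries across membranes, and inside the cell FABP proteins hold them in solution. Cholesterol and phospholipids leave through the ABC transporters ABCA1 and ABCG1 onto particles built around apolipoprotein E, which glia secrete, and the nuclear receptors called LXRs switch on many of these export genes when sterols accumulate. Lipases and phospholipases, such as LPL and the secreted enzyme encoded by Pla2g7, cleave lipids of these particles.

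Of the 8 genes 7 were tested by the authors, and Cuffdiff called 5 lower in q2, none higher and 2 neither way. Over all 12159 tested single-symbol genes, 3.90% were called lower and 5.06% higher in q2, and because the 8 were picked from this same contrast nothing is read from their count. With a log2 fold change of at least 1 also required, 4 of the 8 were called lower, beside 1.88% of all tested genes, and none higher, beside 3.19%. Mfsd2a and Pla2g7 were each more than a log2 unit further down than Apoe or Abca1 in the authors' deposited table. Apoc1 was listed at 0 in q2, Fabp5 and Lpl were not called, and Abcg1 was not tested. The 5 called genes shared the smallest q of the authors' deposited table, Cuffdiff q = 0.00162, which stands for a p of 5e-05 held by 472 entries and so does not rank them. The deposited values are 1 number per comparison, without a value per library, so an error is given here as the fold change divided by the statistic, on the log2 scale. For the 6 members with both, this implied error lay between 0.31 and 0.37, beside a median of 0.35 over 12090 genes.

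**Figure D1:**
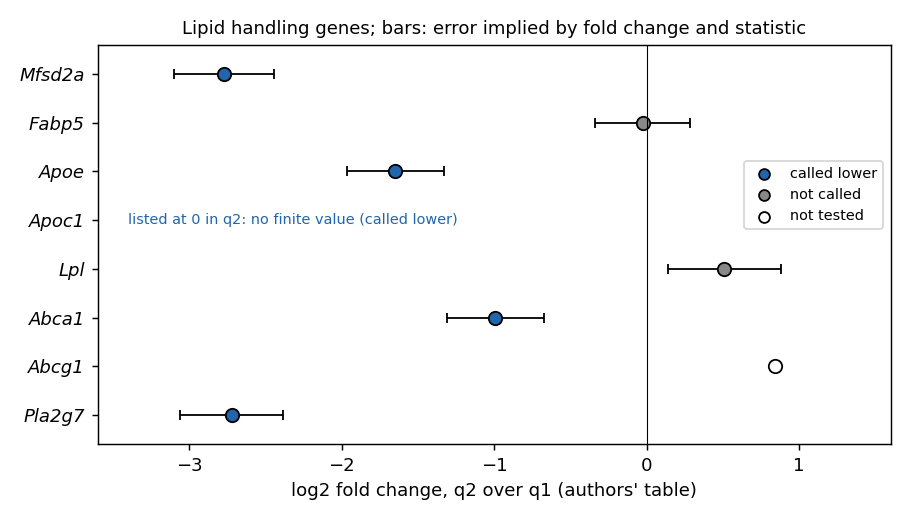
The 8 genes (y axis) by their log2 fold change, q2 over q1 (x axis), as the authors' deposited table gives it, blue if called lower, grey if not called and white if not tested, with bars for the implied error. Mfsd2a at -2.77 and Pla2g7 at -2.72 lie furthest to the left, Fabp5 lies at -0.03, and Apoc1 has no finite value.

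Mfsd2a encodes the sodium-dependent carrier of lysophosphatidylcholine and is best known from the endothelium of the blood-brain barrier. It (GRCm38 chromosome 4, 122946851 to 122961188, minus strand, protein coding) had a log2 fold change of -2.77 with an implied error of 0.33 in the authors' deposited table, a value 6.83-fold lower in q2. By fold change it held rank 29 from the lowest of the 12090 tested genes with a finite statistic, and by absolute statistic rank 11, in the authors' deposited table. For Fabp5, which encodes a cytosolic fatty acid carrier (chromosome 3, 10012585 to 10016674), the authors' deposited table gives -0.03 with an implied error of 0.31 (Cuffdiff q = 0.966). That difference is smaller than its own error, and its sign turned positive when the median of all genes, a GC trend or a length trend was subtracted.

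Pla2g7 encodes the plasma form of platelet-activating factor acetylhydrolase, which removes short or oxidized chains from phospholipids. It (chromosome 17, 43568451 to 43612201, plus strand, protein coding) was at -2.72 with an implied error of 0.34 in the authors' deposited table, which is 6.59-fold lower in q2. Its rank was 33 from the lowest by fold change and 13 by absolute statistic in the authors' deposited table. The values of Mfsd2a and Pla2g7 differ by less than either one's implied error. The entry for 1700071M16Rik carries the same locus as Pla2g7. GENCODE M21 annotates that gene as an antisense RNA on the minus strand (43588340 to 43592442), inside Pla2g7, with 319 exonic bases in common, 11.0% of the exonic bases of Pla2g7. It stood at -2.67 with an implied error of 1.28 in the authors' deposited table and was not called (Cuffdiff q = 0.150). It was called once p was read from the statistic, as deposited or with the length trend subtracted. Whether reads were assigned by strand is not given in the sources used here, so reads of the shared stretch cannot be told apart.

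The apolipoprotein genes Apoe and Apoc1 lie side by side on chromosome 7, 3584 bases apart. Apolipoprotein E is the main lipid-carrying protein that astrocytes secrete, and apolipoprotein C-I is a small exchangeable protein of the same particles. Apoe (19696244 to 19699166, minus strand) was at -1.65 with an implied error of 0.32 in the authors' deposited table, 3.13-fold lower in q2 and rank 120 from the lowest. Apoc1 (19689480 to 19692659, minus strand) was listed at 0 in q2 and above 0 in q1, so the authors' deposited table holds no finite fold change or statistic for it beside its call. It was 1 of 4 called single-symbol genes listed at 0 in q2. Of the rest of this apolipoprotein cluster, Apoc2 was also listed at 0 in q2 and Apoc4 had a listed log2 fold change of 0, both untested by the authors. Lpl, the lipase that frees fatty acids from lipoprotein triglyceride (chromosome 8, 68880555 to 68906932), was at 0.51 with an implied error of 0.37 in the authors' deposited table and was not called (Cuffdiff q = 0.250).

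Of the exporters, ABCA1 loads cholesterol and phospholipid onto lipid-poor apolipoproteins and ABCG1 onto particles that already carry lipid. Abca1 (chromosome 4, 53030789 to 53159895, minus strand) was at -0.99 with an implied error of 0.32 in the authors' deposited table, 1.99-fold lower in q2 and rank 392 from the lowest. The call of Abca1 was lost where a log2 fold change of at least 1 was also asked for, and where p was taken from a normal distribution. Abcg1 (chromosome 17, 31057694 to 31117981) was not tested, and its listed log2 fold change of 0.84 in the authors' deposited table comes with no statistic. Nothing can therefore be said of a difference between the 2 exporters.

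**Figure D2:**
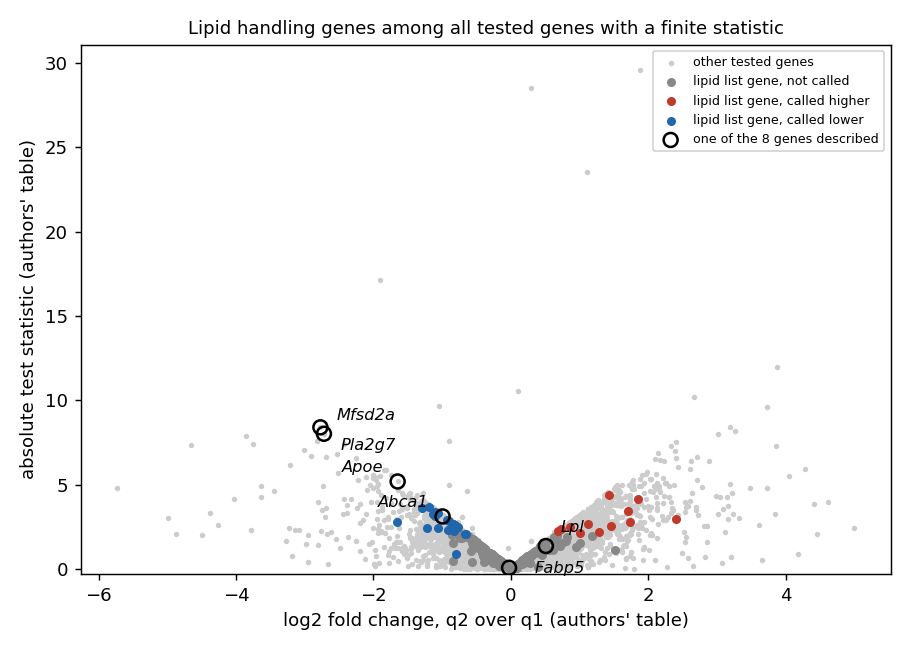
Tested single-symbol genes with a finite statistic (light grey) by log2 fold change, q2 over q1 (x axis), and by size of the test statistic (y axis), both taken from the authors' deposited table. Genes of 10 lipid lists are dark grey, or red for higher and blue for lower calls, and circles mark members; the statistics of Mfsd2a and Pla2g7 are -8.41 and -8.03, those of Apoe and Abca1 -5.20 and -3.13.

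The starts of the 4 called genes with a finite fold change can be compared by their promoters, since these are the members with an entry in the RefSeq promoter table of GRCm38.p6. The 250 bases before the start are printed 5′ to 3′ on the strand of the gene, in lower case, with matches to any of 7 searched motifs in capitals. For Apoe, which has 3 windows in the table, the one nearest the edge of the deposited locus is shown.
Mfsd2a (chr4:122961189-122961438, minus strand): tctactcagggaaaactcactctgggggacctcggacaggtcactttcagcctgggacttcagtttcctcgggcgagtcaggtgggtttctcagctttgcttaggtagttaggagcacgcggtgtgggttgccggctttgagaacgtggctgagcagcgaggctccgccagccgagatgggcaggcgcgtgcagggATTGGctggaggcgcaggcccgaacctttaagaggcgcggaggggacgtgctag
Pla2g7 (chr17:43568201-43568450, plus strand): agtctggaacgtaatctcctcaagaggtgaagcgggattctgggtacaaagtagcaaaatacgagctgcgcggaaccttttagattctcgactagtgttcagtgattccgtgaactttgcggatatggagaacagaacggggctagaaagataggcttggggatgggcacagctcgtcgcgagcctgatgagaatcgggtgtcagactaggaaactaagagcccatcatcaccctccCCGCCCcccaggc
Apoe (chr7:19699189-19699438, minus strand): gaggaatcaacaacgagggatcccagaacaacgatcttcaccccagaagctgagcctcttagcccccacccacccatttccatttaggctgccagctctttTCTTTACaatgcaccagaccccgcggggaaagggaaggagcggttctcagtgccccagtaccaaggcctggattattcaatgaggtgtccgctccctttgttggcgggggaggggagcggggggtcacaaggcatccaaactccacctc
Abca1 (chr4:53159896-53160145, minus strand): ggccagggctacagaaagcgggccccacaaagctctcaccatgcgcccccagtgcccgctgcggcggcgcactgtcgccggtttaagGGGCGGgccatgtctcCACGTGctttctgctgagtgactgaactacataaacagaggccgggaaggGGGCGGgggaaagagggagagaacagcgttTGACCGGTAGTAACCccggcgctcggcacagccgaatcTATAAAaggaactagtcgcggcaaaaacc
The motifs were searched on both strands. They included GGTNA repeated after any 5 bases (an LXR-type direct repeat) and GGTNA repeated after any 2 bases (a PPAR-type direct repeat). TNTTTAC was searched as a loose forkhead-type pattern that accepts any second base. The others were CACGTG (the E-box), TATAAA (the TATA box), CCAAT (the CCAAT box) and GGGCGG (the GC box). No matches of different motifs overlapped in these windows. The LXR-type repeat matched in Abca1 alone of the 4, on the reverse strand 67 to 53 bases before the start, and 0.621% of all 32851 windows of this length held it. Abca1 also held TATAAA from base 29 to 24 before the start, against 12.4% of all windows, and CACGTG from 147 to 142, against 6.02%. It held GGGCGG in 2 places, and Pla2g7 had it on the reverse strand 13 to 8 bases before the start, against 32.7% of all windows. Apoe matched the loose pattern TNTTTAC 149 to 143 bases before the start, as did 10.9% of all windows. The bases there are TCTTTAC, with C at the free place, and whether they form a forkhead site was not tested. Mfsd2a had CCAAT on the reverse strand, 54 to 50 bases before the start, as did 33.8%. No motif matched in all 4 windows, and the PPAR-type repeat, present in 0.938% of all windows, matched in none. The GC content of the windows was 61.6% for Mfsd2a and Abca1, 57.2% for Apoe and 52.8% for Pla2g7, against a median of 52.4% over all windows.

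The genes beside the 5 called members on the chromosome were read as well. Of 24 such neighbours, the 3 nearest tested genes on each side without the members themselves, 21 were not called, 1 was called higher and 2 lower, with a median log2 fold change of -0.20 in the authors' deposited table. Of all 12159 tested genes 11070 were not called, so nothing is read from the neighbours' count. Tomm40, a mitochondrial import gene 2.15 kb beyond Apoe, was at 0.33 and its neighbour Pvrl2 at 0.25 in the authors' deposited table, neither called. The authors' deposited table calls Bcam, which encodes a laminin-binding adhesion molecule 57.0 kb from Apoe, higher at 1.48 (Cuffdiff q = 0.0126). On the other side Clptm1 was at -0.19 and Relb at -0.01 in the authors' deposited table. Beside Mfsd2a, Mycl, a MYC family gene 34.9 kb away, was called lower at -0.70 (Cuffdiff q = 0.0413), a call lost with the length trend subtracted, and Cap1, Ppt1, Trit1, Ppie and Rlf were not called in the authors' deposited table. The direct neighbours of Abca1, Nipsnap3b at -0.20 and Slc44a1 at -0.38, were not called in the authors' deposited table. Pla2g7 had Tnfrsf21 on its lower side at -0.33 and Slc25a27 beyond its antisense gene at -0.09 in the authors' deposited table, neither called.

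**Figure D3:**
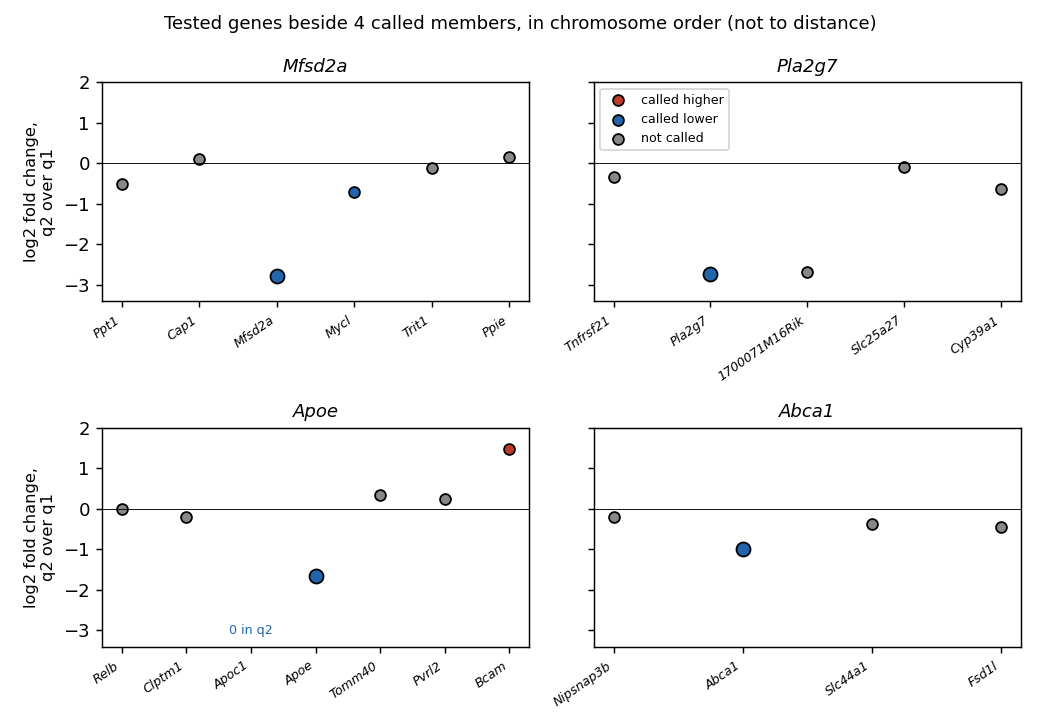
Log2 fold change, q2 over q1 (y axis), from the authors' deposited table, of Mfsd2a, Pla2g7, Apoe and Abca1 (large points) and up to 3 nearest tested genes within 500 kb on each side (x axis, chromosome order, not to distance). Points are blue if called lower, red if called higher and grey if not called; Bcam at 1.48 is the red point, and Apoc1, listed at 0 in q2, is given in words.

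The pathway around the members was described with 10 lists holding 315 genes, of which 228 were tested. Without the 8 members, 12 of 221 tested lipid genes were called higher (5.43%) and 20 lower (9.05%), beside 5.06% and 3.90% of all tested genes. The counts of each list given below, as deposited, stand beside these same shares of all tested genes. For the 221 genes the median log2 fold change was -0.11 in the authors' deposited table, against -0.04 for all tested genes. With a trend of fold change with GC content subtracted, 7 of the lipid genes without the members were called higher and 12 lower. That setting covers the 11562 genes with GC content and length, of which 481 were called higher and 369 lower. Counts of single lists with the GC trend subtracted stand beside those. With a log2 fold change of at least 1 also required, 9 of the 221 were called higher and 9 lower, beside 3.19% and 1.88% of all tested genes.

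Fatty acid and lysophospholipid transport had 2 of 20 tested genes called higher and 6 lower, Mfsd2a included, with 12 not called and a median of -0.21 in the authors' deposited table. The authors' deposited table has Cd36, a fatty acid translocase gene, 3.60-fold higher in q2, at 1.85 (Cuffdiff q = 0.00162). Fabp7, the fatty acid carrier of radial glia and a paralogue of Fabp5, was called lower at -1.13 with an implied error of 0.34 in the authors' deposited table. The third tested FABP gene, Fabp3, was at -0.56 with an implied error of 1.31 in the authors' deposited table and was not called. Acbd5, an acyl-CoA binding protein of peroxisomes, and Acsl4, which activates arachidonic acid, both stood at -1.10 and were called lower in the authors' deposited table, and Acsl4 lost the call with the GC trend subtracted. With that trend subtracted the list held 1 higher and 5 lower calls.

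Among apolipoproteins and lipoprotein lipases 14 of 32 genes in the table were tested, and the 2 calls were Apoe and Apoc1, both lower, at a list median of -0.36 in the authors' deposited table. Apoo, a mitochondrial member by function, was at -0.74 (Cuffdiff q = 0.0917) and the endothelial lipase gene Lipg at -0.84 (Cuffdiff q = 0.197) in the authors' deposited table. For lipoprotein receptors and their regulators 2 of 26 were called higher and 1 lower, with a median of 0.21 in the authors' deposited table. Sorcs2, a sortilin family receptor, was at 1.43 and the large endocytic receptor gene Lrp1b at -1.05 in the authors' deposited table. Lrp1b lost its call with the GC trend subtracted, which left 1 higher and 0 lower in the list. Receptors that bind apolipoprotein E, Lrp1 at 0.02, Vldlr at 0.46 and Lrp8 at -0.17, were not called in the authors' deposited table; these 3 were named after their values were seen.

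ABC lipid transporters were called lower in 3 of 15 tested and higher in none, with a median of 0.04 in the authors' deposited table. Beside Abca1 these were Abcb4, a phosphatidylcholine exporter, at -1.22 (Cuffdiff q = 0.0173) and the peroxisomal transporter gene Abcd3 at -0.65 (Cuffdiff q = 0.0424), both from the authors' deposited table. Abca1, at -0.90, was the 1 call left once the GC trend was subtracted. Of the 7 tested ABCA genes, Abca1 had the lowest value in the authors' deposited table, and the other 6 were not called. Abcg2 at 0.04 and Abcg4 at 0.25 were the tested ABCG genes in the authors' deposited table, and neither was called.

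Phospholipases, platelet-activating factor hydrolases and lysophospholipid enzymes went both ways, with 5 of 33 tested called higher, 4 lower, 24 not called and a median of -0.09 in the authors' deposited table. The lysophosphatidic acid receptor gene Lpar1 was 5.31-fold higher (log2 fold change 2.41, Cuffdiff q = 0.0142) in the authors' deposited table. The acyltransferase gene Mboat1 was at 1.71 and the cytosolic arachidonate-releasing phospholipase gene Pla2g4a at 1.45 in the authors' deposited table, both called higher. Pla2g5, a secreted phospholipase, is listed by the authors' deposited table as 3.17-fold lower, at -1.66 (Cuffdiff q = 0.00827). The intracellular platelet-activating factor hydrolase genes Pafah1b1, Pafah1b2, Pafah1b3 and Pafah2 stood at -0.43, -0.01, -0.34 and -0.26 in the authors' deposited table, and none was called; they were named after their values were seen. With the GC trend subtracted the list held 3 higher and 3 lower calls.

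The textbook LXR targets comprised 14 tested genes, 4 called lower and none higher, with a median of -0.30 in the authors' deposited table. These 4 were Apoc1, Apoe, Abca1 and the fatty acid desaturase gene Scd2 at -0.80, whose Cuffdiff q of 0.0219 stands beside a statistic of only -0.89 in the authors' deposited table. Scd2 lost its call once p was read from the statistic, and 2 calls were left with the GC trend subtracted, Apoe and Abca1, Apoc1 having no statistic to correct. In the authors' deposited table the targets Smpdl3a at -0.73 (Cuffdiff q = 0.0539) and Mylip at 1.01 (Cuffdiff q = 0.192) were not called. Smpdl3a gained a call once p was read from the statistic, as deposited or with the length trend subtracted. Apoc1, Apoe and Abca1 had been chosen on the same contrast, so its count is not independent evidence of a direction. The LXR gene Nr1h2 was at 0.00 with an implied error of 0.32 in the authors' deposited table, and the other LXR gene, Nr1h3, was not tested. Its partners Rxra at 0.63 (Cuffdiff q = 0.0848) and Rxrb at 0.33, and the PPAR genes Ppara at -0.41 and Ppard at 0.13, were not called in the authors' deposited table, while Rxrg and Pparg were not tested. Rxra gained a call, higher at 0.70, with the length trend subtracted. In the whole list of nuclear receptors and SREBP regulators, 1 of 21 was called higher and 1 lower, the latter being the coactivator gene Ncoa1 at -0.85 in the authors' deposited table.

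Lipid droplet, lipolysis and fatty acid oxidation genes were called lower in 5 of 36 tested and higher in none, beside 3.90% and 5.06% of all tested genes. Their median was -0.26 in the authors' deposited table, and 26 of 36 were below 0, as were 53.6% of all tested genes. Mgll, which cleaves monoacylglycerol, was at -1.29, the acyl-CoA thioesterase gene Acot1 at -1.19, the isomerase gene Eci2 at -0.93 and the carnitine palmitoyltransferase gene Cpt1a at -0.84 in the authors' deposited table. Intracellular cholesterol handling had 2 of 26 called lower, the cholesteryl ester hydrolase gene Nceh1 at -0.83 and the sterol carrier gene Scp2 at -0.81 in the authors' deposited table, and Scp2 lost the call with the GC trend subtracted. Sphingolipid and ceramide enzymes had 2 of 33 called higher in the authors' deposited table. The sphingomyelin synthase gene Sgms2 was at 1.74 with an implied error of 0.62 (Cuffdiff q = 0.0165). The ceramide synthase gene Cers4 was at 1.29 with an implied error of 0.59 (Cuffdiff q = 0.0493). Both calls were lost at q under 0.01 and where p was taken from a normal distribution.

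**Figure D4:**
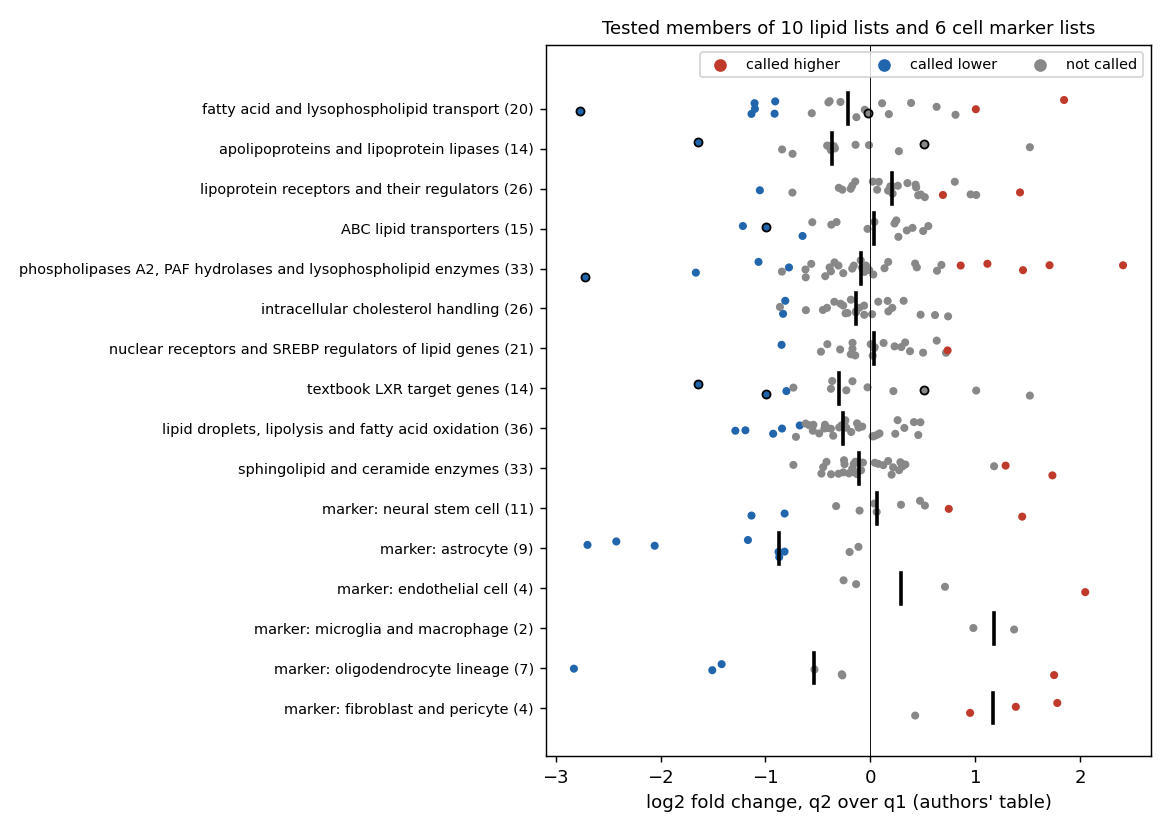
Tested genes of 10 lipid lists and 6 cell marker lists (y axis, number tested in parentheses) by log2 fold change, q2 over q1 (x axis), from the authors' deposited table, with higher calls in red, lower calls in blue and other genes in grey, ringed for the members, with bars at list medians. Medians run from -0.36 for apolipoproteins and lipases to 0.21 for lipoprotein receptors among the lipid lists, as deposited; Apoc1 has no finite value and is not drawn.

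List medians depended on what was subtracted, and each subtraction leaves out Apoc1. With the GC trend subtracted, the median of the apolipoproteins and lipases was -0.18. That of the LXR targets was -0.44, now the lowest of the 10. The medians of phospholipases, intracellular cholesterol, nuclear receptor and sphingolipid genes also moved by more than 1.5 times, to -0.04, -0.07, 0.07 and -0.06. That of ABC transporters went from 0.04 to -0.0021. With the median of all genes or the length trend subtracted instead, the LXR targets were at -0.19 and -0.14. The apolipoproteins and lipases were then at -0.31 and -0.29. Subtracting the median of all genes put phospholipases at -0.06 and nuclear receptor genes at 0.07, so the shifts of these lists were not particular to the GC trend.

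Several members are markers or secreted products of particular brain cells, so marker lists were read beside them. In bulk RNA fewer cells of a type and less RNA per cell cannot be told apart. Each marker count stands beside 5.06% called higher, 3.90% called lower and 53.6% below 0 over all tested genes. All 9 astrocyte markers had a negative fold change, and 7 were called lower in the authors' deposited table, with a median of -0.88 and a range of -2.70 for Aqp4 to -0.11. That range runs from rank 35 for Aqp4 to rank 5080 for Fgfr3 among the 12090 tested genes with a finite statistic. Many other genes therefore lie in it too. Apoe and Abca1 lie within it, and Mfsd2a and Pla2g7 lie below it by less than their implied errors. Nothing is read from these places, and the part of these markers in the members' values was not tested. Of 12 endothelial markers 4 were tested, with Egfl7 called higher at 2.05 and Kdr at 0.71, Slco1c1 at -0.14 and Slc2a1 at -0.26 not called in the authors' deposited table. The junction and adhesion genes Pecam1, Cdh5, Cldn5, Ocln and Esam, which define endothelium, were not tested. Slco1c1 and Slc2a1 are, like Mfsd2a, transporter genes of the blood-brain barrier. Of 12 microglia and macrophage markers, cells that also express Apoe, Apoc1 and Lpl, 2 were tested and none called by Cuffdiff, and 6 of the other 10 had no finite fold change other than 0. Of the neural stem cell markers, 11 of 12 were tested. The authors' deposited table calls Sox1 at 1.45 and Nes at 0.75 higher, Fabp7 and Hes5 lower, and the other 7, Sox2 at 0.04 and Pax6 at -0.10 among them, neither way. Oligodendrocyte lineage markers were called higher in 1 of 7 and lower in 3, with a median of -0.53 in the authors' deposited table and a range from -2.83 for Pdgfra to 1.75. That range runs from rank 26 for Pdgfra to rank 11926 for Mbp among the 12090 genes, so it holds nearly all of them. Mfsd2a, Pla2g7, Apoe and Abca1 lie in it as most genes do, and nothing is read from that. The part of these markers in the members' values was not tested either. Of 10 fibroblast and pericyte markers 4 were tested and 3 called higher, Acta2 at 0.95, Fbn1 at 1.39 and Fn1 at 1.78 in the authors' deposited table. Col1a1 at 0.43 (Cuffdiff q = 0.604) was not called. The other 6, Col1a2, Col3a1, Dcn, Lum, Pdgfrb and Rgs5, were not tested, and 3 of them had no finite fold change other than 0. Summed levels of these lists were not assessed, since values per condition were not used here.

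The members' fold changes moved little with the scaling. Between the deposited value and those with the median, the GC trend or the length trend subtracted, Mfsd2a ranged from -2.90 to -2.74, Pla2g7 from -2.72 to -2.61, Abca1 from -0.99 to -0.90 and Lpl from 0.51 to 0.62. Apoe, the member with the highest transcript GC content at 60.6%, ranged most widely, from -1.99 with the GC trend subtracted to -1.61 with the median subtracted.

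**Figure D5:**
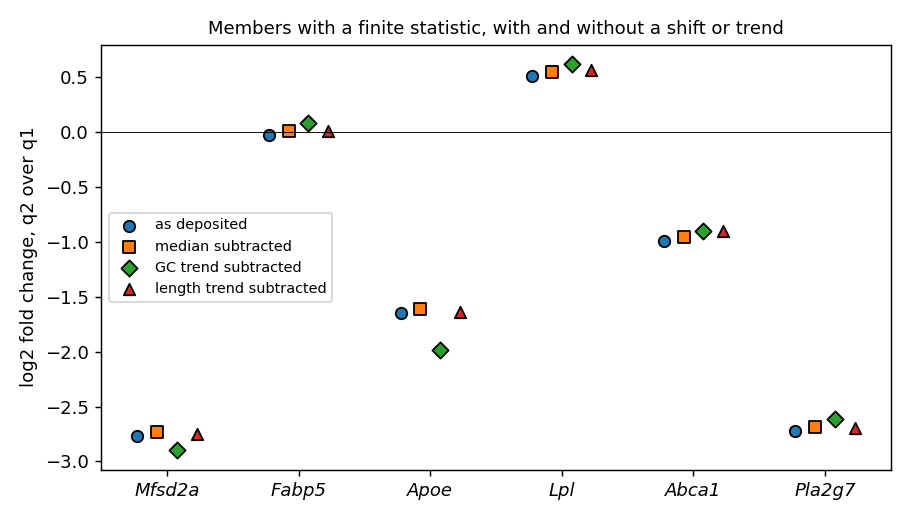
Log2 fold change, q2 over q1 (y axis), of the 6 members with a finite statistic (x axis), as given in the authors' deposited table and with the median of all tested genes, the GC trend or the length trend subtracted (marker shapes). Fabp5 lies on both sides of 0, Lpl stays above 0, and Mfsd2a, Pla2g7, Apoe and Abca1 stay below 0 in all 4.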

How the data were processed

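The 4 libraries (2 per shRNA, groups from the sample titles) came as 1 comparison table. TopHat2 2.0.9, Cufflinks 2.2.1 and Cuffdiff with build mm10 (GRCm38) are named in the submitters' processing notes; for the Cuffdiff version, annotation, filters and strand use, the entry is "not given in the sources used here". Its log2 fold changes are q2 over q1, per the file headers. The test statistic is the authors' score, per the file headers. Both p-values and q-values are as deposited. Recomputing a Benjamini-Hochberg adjustment over the 15315 tested entries gave each q to within 0.001 of its size, and 11500 entries were left untested by the authors. Columns of per-condition values, 2 in number, matched no group and were not used, so levels and read depth are unknown. Replicates are passages of bought cells, per the labels, so p-values measure only the spread between these passages, not between animals.

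A call is a q under 0.05. Starts were converted to count from 1. Counts and medians cover 12159 tested genes, those whose entry holds 1 symbol found nowhere else. The members and lists were chosen with earlier results of these data known. Beside the members, the text names Foxp1, up to 4 called genes per lipid list, up to 2 others where fewer than 2 were called, LXR, RXR and PPAR genes, and neighbours of called members; gene families, receptors of apolipoprotein E and marker genes were picked after their values were seen. A few genes that are counted are not reported here by name. GC content (median over transcripts) and length (longest transcript) came from GENCODE M21 for 11562 of 12090 genes (95.6%). Trends were medians in 50 bins; the corrected fold change was divided by the implied error and p read from the authors' relation of p to statistic, a procedure tested on simulated data. Promoters are RefSeq's (GRCm38.p6), with entries for 4 of the 8 members. Alternatives were other q thresholds, a minimum fold, normal p-values, adjustment over single-symbol genes, p read from the statistic, and subtraction of the median, GC or length trend. Python 3.11.15, numpy 2.4.6, pandas 2.3.3, matplotlib 3.10.9, scipy 1.17.1 and scikit-learn 1.9.0 ran the computations.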

Additional observations from a re-analysis of the deposited data

How the results depend on the processing

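Mfsd2a, Pla2g7, Apoe and Foxp1 were called lower in q2 under all 9 alternatives run. Abca1 lost its call under a minimum log2 fold change of 1 and under p-values from a normal distribution, and Apoc1 has no statistic for the 5 alternatives that need one. Fabp5, at -0.026 as deposited, went to 0.0092 with the median, 0.082 with the GC trend and 0.0072 with the length trend subtracted. With normal p-values 3 members were called lower, of the other lipid genes 3 were called higher and 5 lower, and of all genes 223 higher and 148 lower. At q under 0.01 these counts were 4 and 13 for the other lipid genes and 358 and 269 for all genes. With a log2 fold change of at least 1, 9 of the 221 other lipid genes were called higher and 9 lower, instead of 12 and 20. The 2 counts were then equal, whereas of all genes 388 (3.19%) were called higher and 228 (1.88%) lower. Subtracting the GC trend left 7 and 12 other lipid genes, and 481 higher and 369 lower of the 11562 genes with GC content and length. The stricter rules call fewer genes by construction, and for the GC trend the cause was not tested. Of the values of single genes and counts of single lists, 179 kept direction and call or stayed within 1.5 times, and 50 counts moved further. No paired analysis was possible because the deposited table holds no value per library, and for the same reason no library could be left out. Depth is unknown, so how far it limits the untested genes, Abcg1 among them, cannot be said.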

Other observations

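Mfsd2a belongs to a family of major facilitator proteins named by sequence, whose members carry different cargo. Of the 12 tested genes whose symbols start with Mfsd, 1 was called higher and 2 lower in the authors' deposited table. Mfsd10, an organic anion transporter gene, was 4.70-fold higher in q2 (Cuffdiff q = 0.00162) and Mfsd6 was 1.65-fold lower (Cuffdiff q = 0.0473) in the authors' deposited table. Mfsd2b, the nearest relative of Mfsd2a by name, was not tested. This family was looked at after its values were seen.

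Lysophosphatidic acid is made outside cells by autotaxin, the product of Enpp2, and is sensed by receptors of the Lpar genes. Enpp2 was called lower at -1.07 and Lpar1 higher at 2.41 in the authors' deposited table. Lpar4 at -0.08 (Cuffdiff q = 0.914) and Lpar6 at -0.39 (Cuffdiff q = 0.816) were not called, and Lpar2 and Lpar3 were not tested, in the authors' deposited table. These genes were likewise singled out after their values were seen.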
